A study of Mus musculus with 6 samples.

Results

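A group of 71 genes was off in wild-type mouse intestinal organoids and on in Smad4-deficient organoids given TGF-β. Such organoids are gut epithelium kept in culture as budding spheres that stem cells maintain. Levels are CPM, a gene's value divided by the library total and multiplied by 1e6. The genes were chosen by their measured levels: both wild-type (WT) libraries had to be under 0.5 CPM and both libraries with TGF-β at 2 CPM or more. Named protein-coding genes alone were considered. The genes Spp1, Fn1, Anxa8, Anxa10, Igfbp7 and Ankrd1 were left out by name, as were all genes whose symbols begin with Cyp, Ugt, Slc, Krt, Lam or Itg. Of the 31227 genes in the table, 80 had this pattern and 77 of those were named protein-coding genes. Leaving out Ankrd1, Fn1, Itgb8, Krt79, Slc26a9 and Spp1 gave the 71.

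Bulk RNA was sequenced from 6 libraries in 3 groups of 2: WT, Smad4 KO, which the labels call Smad4-deficient, and Smad4 KO+TGFb, which is the same genotype with 0.5 nM TGFb. All groups were fed EGF, R-spondin1 and Noggin, so this BMP blocker was present in the controls too, and every title carries a time of 48 h. Whether TGF-β was given for these 48 h alone or for further days after them is not clear from the protocol. The labels do not say how Smad4 was inactivated or whether the replicates were separate cultures or animals, so p-values measure only the spread between these libraries, which may be technical. WT organoids with TGF-β were not analysed here, so the second of the 2 steps below is TGF-β given to Smad4 KO organoids. Library totals ran from 40.55 to 50.7 M units of estimated counts. Smad4, the gene named in the labels, was at 103 and 113 CPM in WT, at 21.0 and 22.3 CPM in Smad4 KO and at 25.1 and 29.6 CPM with TGF-β. Its transcript was thus lower in all 4 KO libraries and was at 0 in none of them, and which part of the gene was deleted is not given.

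TGF-β binds a pair of receptor kinases on the cell surface, which phosphorylate SMAD2 and SMAD3. These join SMAD4 and enter the nucleus to regulate genes, and BMP ligands use SMAD4 in the same way with SMAD1 and SMAD5. TGF-β receptors also signal through kinase pathways that do not need SMAD4. In the intestine, BMP signals restrain stem cells and favour differentiation, and TGF-β is known for its role in repair after injury.

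The organoids were epithelial by their markers in every library. The 8 epithelial markers (such as Epcam, Cdh1, Vil1 and Krt8) summed to 7490 to 7630 CPM in WT and 10100 to 10200 CPM in Smad4 KO. With TGF-β they summed to 14500 to 14700 CPM. The genes did not rise alike, so the sum does not measure epithelial content. Krt8 went from 2290 and 2280 CPM in WT to 5180 and 5090 CPM with TGF-β, and Epcam from 1120 and 1140 CPM to 1510 and 1490 CPM. The 14 fibroblast and mesenchymal markers summed to 19.3 to 19.7 CPM in WT, 6.51 to 7.16 CPM in Smad4 KO and at 3.53 to 6.4 CPM with TGF-β, and 8 of them, Col1a2, Col3a1, Dcn, Lum, Twist1, Twist2, Zeb1 and Zeb2, were at 0 in every library. Leukocyte markers, 8 genes, summed to 5.27 to 7.08 CPM in WT, 4.74 to 5.28 CPM in Smad4 KO and at 5.56 to 6.06 CPM with TGF-β. In bulk samples such as these, fewer cells that express a gene and less RNA of it per cell cannot be told apart.

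The Smad4 KO libraries, which the rule did not use, show where each gene stood between its off and on states. By the rule's own levels, 12 genes (16.9%) were already on in Smad4 KO, with both libraries at 2 CPM or more. Another 15 (21.1%) were still off, with both libraries under 0.5 CPM, and 44 (62%) lay between. Most of these genes were thus short of the on level in Smad4 KO without TGF-β. So were nearly all of the 6871 named protein-coding genes off in WT under the same exclusions. Of those, 0.247% were on in Smad4 KO, 4.21% lay between and 95.5% were still off. The 71 are among them and were also chosen for high levels with TGF-β. Across the 71 genes the mean in Smad4 KO was a median 15.9% of the mean with TGF-β, with a range of 0 to 150%. Without Smad4 KO library 2, 23 genes would count as still off.

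**Figure D1:**
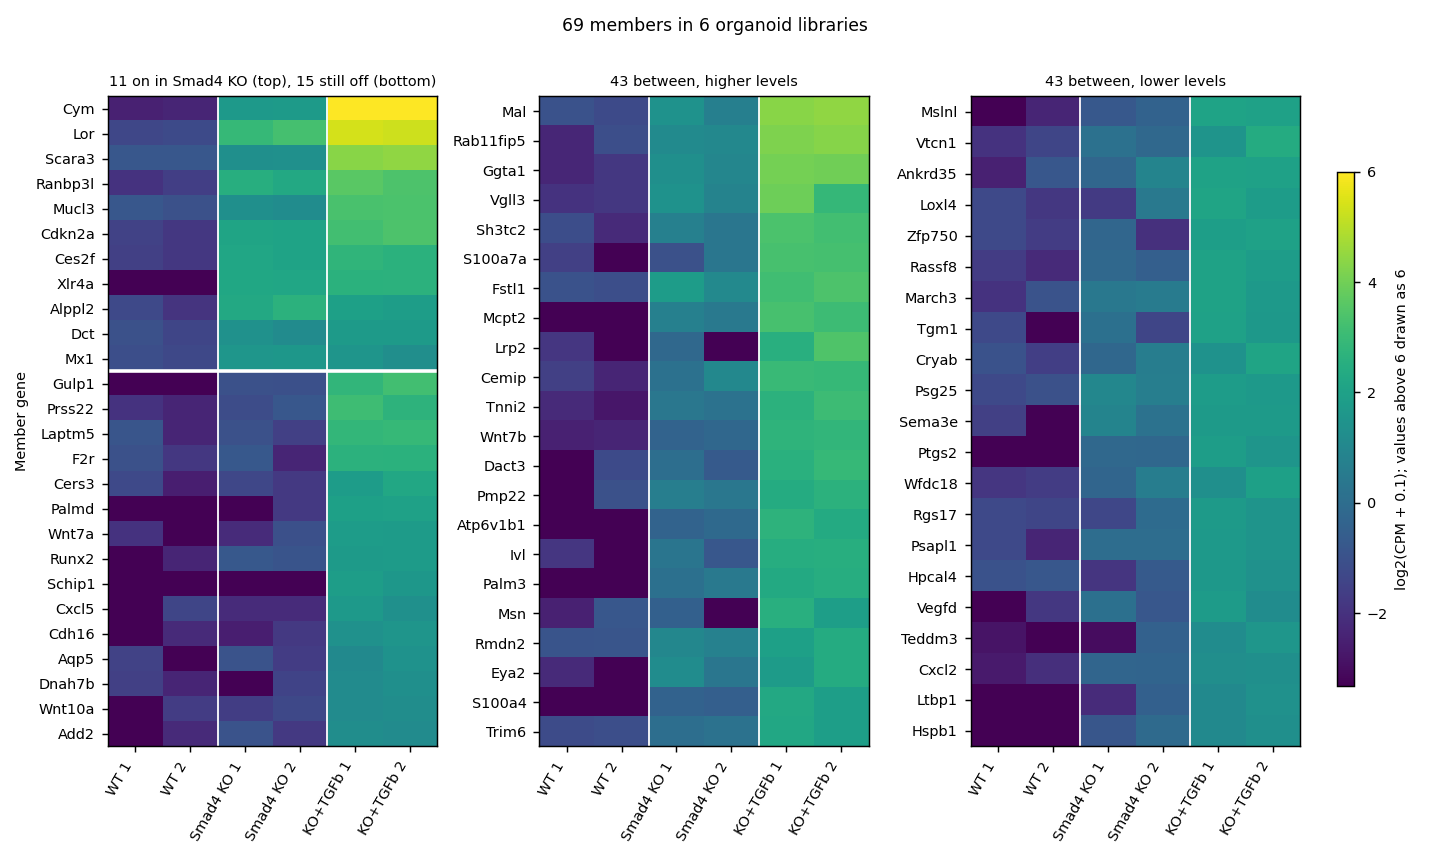
Level of 69 of the 71 genes in each of the 6 libraries, as log2(CPM + 0.1), with values above 6 drawn as 6; the left panel holds 11 of the genes on in Smad4 KO above the 15 still off, and the other panels 43 of those between, each sorted by mean level with TGF-β. The WT columns are low and the TGFb columns high by the rule, and in the left panel the Smad4 KO columns are high for the upper 11 genes and low for the lower 15.

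Each step was also tested by edgeR's quasi-likelihood test over all 15503 genes that passed a filter on low values, with a Benjamini-Hochberg adjusted p under 0.05 called a pass. All 71 genes passed that filter, and had to, through the TGFb libraries. From WT to Smad4 KO, 46 of the 71 rose and 0 fell, and 16.9% of all genes tested passed as higher. From Smad4 KO to Smad4 KO+TGFb, 41 of the 71 rose and 0 fell, against a background of 7.78%. In neither step was any of the 71 lower even at an unadjusted p under 0.05 in edgeR, and 0 were lower in DESeq2. Without either TGFb library the second count was 22. The rule chose WT values that are low and TGFb values that are high, so a rise in at least 1 step was built in, and these counts describe the steps and are no independent support. Over all genes the calls of the first step split into 2620 higher and 2084 lower, which became 2125 and 2926 when libraries were scaled by their totals, a scaling under which the median log2 change of all genes was -0.11 and not -0.02; for the second step the split went from 1206 and 1315 to 1495 and 1108. Of the 71 genes, 45 and 41 passed under that scaling.

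The contrast of TGFb with WT, on which the genes were selected, was not tested for them, and 20.7% of all genes passed as higher in it. By these calls 30 genes rose in both steps, 16 in the first step alone, 11 in the second alone and 14 in neither. A pass in 1 step and not in the other does not show that the steps differ, so the difference between the log2 changes of the steps was tested directly. In 15 genes the first step was the larger, where 9.85% of all genes passed in that direction. In 0 of the 71 was the second step the larger in this edgeR fit, where 5.42% of all genes passed. The rule fixed the WT and TGFb values that this test uses too. Choosing low WT values can enlarge the first step, so these counts are a description and no independent support. Without adjustment 5 of the 71 had a p under 0.05 in that direction (Prss22, Laptm5, F2r, Cers3 and Hpcal4). The count of 0 with a larger second step depends on the tool and its settings. DESeq2 called 16 genes with a larger first step and 4 with a larger second (Laptm5, F2r, Cers3 and Schip1). In edgeR without the filter on low values, F2r and Laptm5 also passed the test of unequal steps. These genes were named after their values were seen. The 15 fell to 9 without either TGFb library. In 7 of these 15, Mcpt2, Xlr4a, Atp6v1b1, Palm3, S100a4, Ptgs2 and Hspb1, both WT libraries were at 0, and a log2 change from 0 has no fixed size. The other 8, such as Lor, Ranbp3l, Cdkn2a, Ces2f, Alppl2, Dct and Mx1, were all among the 12 genes on in Smad4 KO.

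The order of the libraries was compared without a model. Both Smad4 KO libraries lay above both WT libraries in 53 of the 71 genes, against 25.9% of all genes tested. Both TGFb libraries lay above both Smad4 KO libraries in 69, against 32.9% of all genes, and the exceptions were Alppl2 and Mx1. Here too the rule fixed an end of each comparison. The plot of levels before and after TGF-β shows the spread of starting points.

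**Figure D2:**
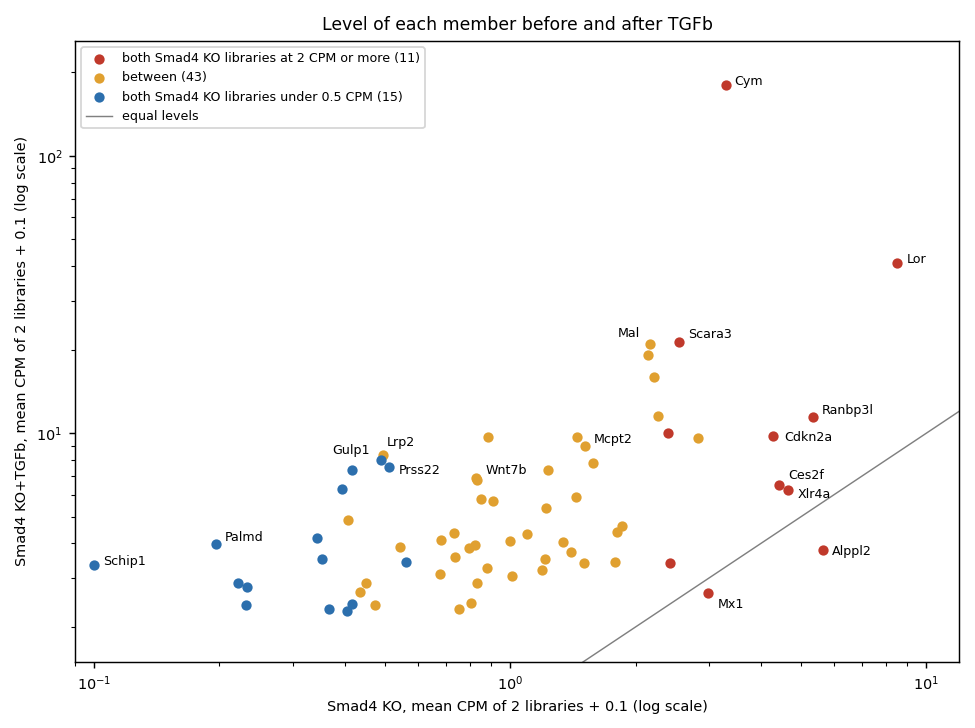
Mean CPM in Smad4 KO (horizontal) against mean CPM in Smad4 KO+TGFb (vertical) for 69 of the 71 genes, each the mean of 2 libraries plus 0.1, on log axes, coloured by the level in Smad4 KO. Cym lies far above the rest at 180 CPM with TGF-β, and Alppl2 and Mx1 lie below the line of equal levels.

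Cym, which encodes chymosin, the milk-clotting protease of the young stomach, was the most abundant of the 71. It was at 0.0789 and 0.0941 CPM in WT, at 3.11 and 3.28 CPM in Smad4 KO and at 182 and 178 CPM with TGF-β. The 3 groups did not overlap, and the libraries within each lay close together. Its level in Smad4 KO passed the on level yet was only 1.77% of that with TGF-β, the lowest share among the 12 genes already on. The second step was a log2 change of 5.77 ± 0.08 (SE, n = 2 libraries a group, edgeR adjusted p = 1.28e-06), and the first was a 37.2-fold rise with a 95% counting interval of 9.9 to 314, since the WT libraries rest on few reads. Per kilobase of exon Cym also led, at 146 CPM per kb with TGF-β against a median of 1.45 CPM per kb over the 71. The gene lies on chromosome 3 from 107211293 to 107221732 on the minus strand of GRCm38.

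Lor, loricrin, the main protein of the cornified envelope of skin, was next. Its levels were 0.296 and 0.33 CPM in WT, at 7.42 and 9.39 CPM in Smad4 KO, and at 42.4 and 39.2 CPM with TGF-β. Both steps passed, at log2 changes of 4.83 ± 0.20 (SE, edgeR adjusted p = 1.57e-05) and 2.23 ± 0.15 (adjusted p = 0.000239), and the first was the larger. It had the highest mean of the 71 genes in Smad4 KO.

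Scara3, a scavenger receptor, and Mucl3, a mucin-like protein, were the on genes nearest to the WT limit. Scara3 was at 0.473 and 0.471 CPM in WT, at 2.42 and 2.49 CPM in Smad4 KO and at 20.4 and 21.9 CPM with TGF-β. Mucl3 was at 0.473 and 0.4 CPM, then at 2.37 and 2.2 CPM, and then at 9.81 and 10.1 CPM. Both rose in both steps, with second-step log2 changes of 3.06 ± 0.15 (SE, edgeR adjusted p = 9.09e-05) and 2.07 ± 0.21 (adjusted p = 0.00129). The test of unequal steps did not pass for Cym, Scara3 or Mucl3, the only 3 of the 12 on genes of which that holds.

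Ranbp3l and Cdkn2a stood nearly midway in Smad4 KO, by CPM, between WT and TGFb. Ranbp3l encodes a factor that exports the BMP-responsive SMADs from the nucleus, and was at 0.158 and 0.235 CPM in WT, at 5.65 and 4.81 CPM in Smad4 KO and at 12 and 10.5 CPM with TGF-β. Cdkn2a encodes the cell cycle inhibitors p16 and p19, and was at 0.256 and 0.188 CPM, then at 4.29 and 4.1 CPM, and then at 8.93 and 10.4 CPM. In both genes all 3 groups were apart, and the Smad4 KO mean was 46.4% and 43.4% of the TGFb mean. Their first steps were log2 changes of 4.82 ± 0.28 (SE, edgeR adjusted p = 6.91e-05) and 4.30 ± 0.26 (adjusted p = 9.03e-05). Second steps of 1.06 ± 0.21 (adjusted p = 0.0187) and 1.16 ± 0.21 (adjusted p = 0.0127) passed in the full fit. That pass was lost for Ranbp3l when any 1 of the 4 KO libraries was left out, where the edgeR adjusted p was 0.0543 to 0.113, and for Cdkn2a without Smad4 KO library 1 or 2 or TGFb library 2, where it was 0.055 to 0.0916. Cdkn2b, the neighbouring inhibitor gene and no member, went from 26.2 and 25.9 CPM to 93.4 and 96.2 CPM with the loss of Smad4, and was at 97.5 and 96.3 CPM with TGF-β.

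For 5 of the 12 on genes no second step passed: Ces2f, Xlr4a, Alppl2, Dct and Mx1. Ces2f, a carboxylesterase, was at 0.237 and 0.188 CPM in WT, at 4.46 and 4.19 CPM in Smad4 KO and at 6.81 and 6.04 CPM with TGF-β. The X-linked Xlr4a was at 0 in WT, at 4.61 and 4.5 CPM in Smad4 KO, which is at least 35.4-fold higher against a floor of 3 fragments over the WT group, and at 6.03 and 6.2 CPM with TGF-β. Alppl2, an alkaline phosphatase, was at 0.316 and 0.165 CPM, then 4.83 and 6.25 CPM, and then 3.83 and 3.57 CPM, so that both TGFb libraries lay below both Smad4 KO libraries. Its second-step log2 change was -0.63 ± 0.31 (SE, edgeR adjusted p = 0.239). Mx1, a GTPase induced by interferon, was at 0.375 and 0.306 CPM, then 2.86 and 2.92 CPM, and then 2.79 and 2.31 CPM, with a first-step log2 change of 3.16 ± 0.35 (adjusted p = 0.000991).

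Dct, dopachrome tautomerase, is known from pigment synthesis in melanocytes. Its levels were 0.394 and 0.282 CPM in WT, at 2.52 and 2.13 CPM in Smad4 KO and at 3.32 and 3.29 CPM with TGF-β. The list of 6 melanocyte markers holds Dct itself. Of the others, Tyr, Tyrp1 and Mlana were at 0 in every library, while Pmel was at 1.37 to 2.15 CPM and Mitf at 0.115 to 0.383 CPM. With Dct in it, the list summed to 2.05 to 2.74 CPM in WT, 4.26 to 4.32 CPM in Smad4 KO and 4.94 to 5.59 CPM with TGF-β. Of the 3 markers tested (Mitf, Dct and Pmel), only Dct passed, as higher in the first step.

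Some of these genes have close relatives at far higher levels, and StringTie, which made the estimates, can divide reads between near-identical sequences. Ces2a was at 97.6 and 93.0 CPM in WT, at 1230 and 1180 CPM in Smad4 KO and at 714 and 709 CPM with TGF-β, so the levels of Ces2f are uncertain. Alpi, the intestinal alkaline phosphatase, was at 327 and 329 CPM, then 1290 and 1260 CPM, and then 1260 and 1300 CPM, so those of Alppl2 are uncertain in the same way. The relatives of Xlr4a were at lower levels but went up as well. Xlr4b was at 0.178 and 0.0941 CPM in WT, at 0.691 and 1.25 CPM in Smad4 KO and at 1.32 and 1.12 CPM with TGF-β. Its first step passed (edgeR adjusted p = 0.0199). Xlr4c was at 0 in WT, at 0.863 and 0 CPM in Smad4 KO and at 1.09 and 1.1 CPM with TGF-β. How reads were divided between these genes and Xlr4a was not tested.

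**Figure D3:**
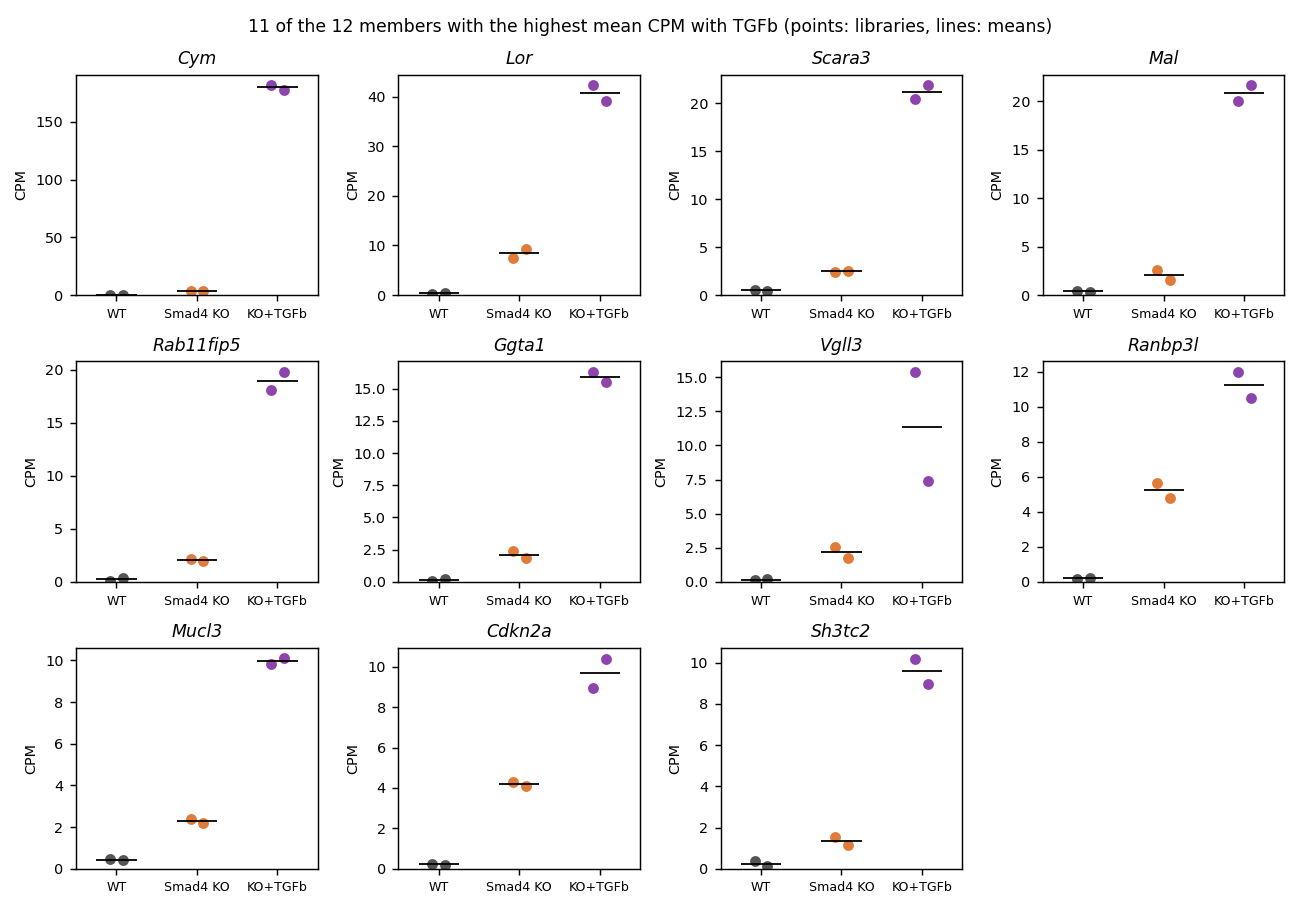
CPM in each library (points) with the mean of each group of 2 libraries (lines) for 11 of the 12 genes with the highest mean with TGF-β, on linear axes that start at 0 and differ between panels. In Ranbp3l and Cdkn2a the Smad4 KO points lie nearly midway up, and in Cym they lie close to the axis; the TGFb points of Vgll3 at 15.4 and 7.36 CPM are the farthest apart.

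At the other end, 15 genes were still off in Smad4 KO, and 10 of them rose in the second step. Schip1, which encodes a protein that binds schwannomin, was the only gene of the 71 at 0 in both WT and both Smad4 KO libraries, and was at 3.56 and 2.95 CPM with TGF-β. This is at least 22.3-fold higher against the floor over the Smad4 KO group. The edgeR test of that step passed with an adjusted p of 0.00508, and missed without TGFb library 1 at 0.0534. Its exons overlap those of the read-through gene Iqschfp on the same strand over 39.1% of their length, and Iqschfp was at 0 and 0.565 CPM in WT, at 0.296 and 0.814 CPM in Smad4 KO and at 0 with TGF-β. How reads were divided between these genes was not tested.

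Gulp1, Prss22, Laptm5 and F2r had the highest levels with TGF-β among the still-off genes, and their second steps passed whichever library was left out. Gulp1, an adaptor for the uptake of dying cells, was at 0 in WT, at 0.395 and 0.383 CPM in Smad4 KO and at 6.95 and 8.89 CPM with TGF-β, a second-step log2 change of 4.29 ± 0.33 (SE, edgeR adjusted p = 0.00106). Prss22, a secreted serine protease, was at 0.158 and 0.0941 CPM, then 0.345 and 0.479 CPM, and then 8.5 and 6.43 CPM, a change of 4.12 ± 0.37 (adjusted p = 0.000846). F2r, the thrombin receptor PAR1, was at 0.394 and 0.188 CPM, then 0.493 and 0.0958 CPM, and then 6.19 and 6.15 CPM, a change of 4.33 ± 0.70 (adjusted p = 0.00852). In F2r the WT and Smad4 KO libraries overlapped, and in Gulp1 and Prss22 they did not.

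Laptm5 encodes a lysosomal membrane protein best known from blood cells. It was at 0.454 and 0.0941 CPM in WT, at 0.395 and 0.239 CPM in Smad4 KO and at 7.11 and 7.45 CPM with TGF-β, a second-step log2 change of 4.46 ± 0.63 (SE, edgeR adjusted p = 0.00513). The leukocyte markers summed to 5.27 to 7.08 CPM in WT, 4.74 to 5.28 CPM in Smad4 KO and 5.56 to 6.06 CPM with TGF-β. Of the 4 of these markers that were tested, 0 passed as higher in the second step. The sum of all 8 was higher with TGF-β than in Smad4 KO, and its range in WT reached above both. Of these markers Cd79a and Adgre1 were at 0 in every library, Ptprc was at no more than 0.115 CPM and Cd3e at no more than 0.0915 CPM. Cd68, at 2.35 to 4.66 CPM, and Itgam, at 1.05 to 2.05 CPM, were detected in all. Lyz2 was at 0.552 and 0.282 CPM in WT, at 0.271 and 0.144 CPM in Smad4 KO and at 0.416 and 0.823 CPM with TGF-β. Csf1r was at 0.256 and 0.0941 CPM, then at 0.814 and 0.647 CPM, and then at 0.739 and 1.69 CPM, and the part of such cells in the level of Laptm5 was not tested.

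The still-off genes also held developmental regulators at lower levels. Runx2, a transcription factor of bone formation, was at 0 and 0.0941 CPM in WT, at 0.493 and 0.431 CPM in Smad4 KO and at 3.28 and 3.36 CPM with TGF-β, and passed in both steps. Wnt7a was at 0.158 and 0 CPM, then 0.123 and 0.383 CPM, and then 3.44 and 3.41 CPM, and Wnt10a reached 2.17 and 2.29 CPM. Cers3, which makes the very long ceramides of the skin barrier, was at 3.49 and 4.69 CPM with TGF-β, and Palmd, which encodes palmdelphin, at 3.83 and 3.91 CPM. Cdh16, the kidney-enriched cadherin, was at 2.54 and 2.84 CPM. The chemokine Cxcl5 was at 0 and 0.282 CPM in WT, at 0.123 and 0.12 CPM in Smad4 KO and at 3.12 and 2.47 CPM with TGF-β, and its second step missed the threshold (adjusted p = 0.0539). Also without a pass in the second step were Wnt10a, the water channel Aqp5, the spectrin partner Add2 and the dynein heavy chain Dnah7b, the last at 0.237 and 0.0941 CPM in WT, at 0 and 0.263 CPM in Smad4 KO and at 2.15 and 2.42 CPM with TGF-β. Besides Gulp1 and Runx2, Prss22 was the other still-off gene that passed in the first step.

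Between these ends lay 44 genes, of which 31 rose in the first step and 24 in the second. The 5 highest of them with TGF-β, Mal, Rab11fip5, Ggta1, Vgll3 and Sh3tc2, rose in both. Mal, a proteolipid that sorts cargo to the apical membrane, was at 0.414 and 0.33 CPM in WT, at 2.61 and 1.53 CPM in Smad4 KO and at 20.0 and 21.7 CPM with TGF-β. Rab11fip5, an effector of the recycling GTPase RAB11, was at 0.0986 and 0.377 CPM, then 2.12 and 1.96 CPM, and then 18.1 and 19.8 CPM. The enzyme gene Ggta1, which makes the alpha-gal sugar epitope, was at 0.0986 and 0.188 CPM, then 2.39 and 1.84 CPM, and then 16.3 and 15.5 CPM. Sh3tc2, also a RAB11 effector, was at 0.355 and 0.118 CPM, then 1.55 and 1.15 CPM, and then 10.2 and 8.99 CPM. The groups did not overlap in any of the 4, and the second-step log2 changes were 3.28 ± 0.28, 3.17 ± 0.37, 2.86 ± 0.25 and 2.78 ± 0.41 (SE), with edgeR adjusted p of 0.000642, 0.00244, 0.000744 and 0.00572.

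Vgll3 encodes a cofactor of the TEAD transcription factors, to which YAP also binds. It was at 0.158 and 0.188 CPM in WT, at 2.59 and 1.72 CPM in Smad4 KO and at 15.4 and 7.36 CPM with TGF-β. TGFb library 1 held more of it than library 2, and both were above all Smad4 KO libraries. Its first step was a log2 change of 3.72 ± 0.51 (SE, edgeR adjusted p = 0.00261). The second, 2.35 ± 0.41 (adjusted p = 0.0111), missed without Smad4 KO library 2 (0.0676) and without TGFb library 1 (0.0516). In 7 more of the 71 genes the TGFb libraries differed by over 1.5 times, namely Lrp2, Msn, Eya2, Vtcn1, Cryab, Wfdc18 and Vegfd.

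Several genes of stratified epithelium other than Lor stood in the middle group. Ivl, involucrin, was at 0.178 and 0 CPM in WT, at 1.13 and 0.479 CPM in Smad4 KO and at 5.52 and 5.69 CPM with TGF-β. S100a7a, a psoriasin relative, was at 0.237 and 0 CPM, then 0.395 and 1.17 CPM, and then 9.74 and 9.42 CPM. Tgm1, the transglutaminase that crosslinks the envelope, was at 0.316 and 0 CPM, then 0.986 and 0.287 CPM, and then 3.9 and 3.04 CPM. Zfp750, a regulator of epidermal differentiation, was at 0.316 and 0.212 CPM, then 0.74 and 0.144 CPM, and then 3.65 and 3.89 CPM. Of these genes and Lor and Cers3, a group drawn up after the members were known, Lor and Ivl rose in the first step, and Lor, S100a7a, Cers3 and Zfp750 in the second. The pass of Ivl, at an edgeR adjusted p of 0.0482, was lost when any library other than WT 1 was left out, at 0.0537 to 0.178.

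The 200 bases before the RefSeq start of Lor, Ivl, S100a7a and Vgll3 are shown. These stretches were chosen because they carry matches, in capitals, to the binding letters of AP-1 or of the TEAD factors. The GENCODE vM21 annotation starts S100a7a at 90654017, so by it the stretch shown for S100a7a lies inside the gene and not before it. The sequences are from RefSeq on GRCm38.p6 and run 5′ to 3′ on the strand of the gene. Lor (chr3:92083143-92083342, minus strand) and Ivl (chr3:92573736-92573935, minus strand) each hold 1 AP-1 match, TGANTCA, which begins 48 and 116 bases before the start. S100a7a (chr3:90654102-90654301, plus strand) holds 3 TEAD matches, GGAATG or its reverse complement CATTCC, and Vgll3 (chr16:65814989-65815188, plus strand) holds 1, which begins 63 bases before the start.
Lor: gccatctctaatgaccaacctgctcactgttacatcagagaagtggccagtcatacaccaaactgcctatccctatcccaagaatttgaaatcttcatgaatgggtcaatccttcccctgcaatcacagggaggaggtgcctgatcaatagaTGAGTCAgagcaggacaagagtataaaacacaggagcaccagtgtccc
Ivl: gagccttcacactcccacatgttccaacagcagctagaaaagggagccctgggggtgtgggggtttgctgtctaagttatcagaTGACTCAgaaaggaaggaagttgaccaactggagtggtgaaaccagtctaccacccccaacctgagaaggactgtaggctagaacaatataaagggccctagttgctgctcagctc
S100a7a: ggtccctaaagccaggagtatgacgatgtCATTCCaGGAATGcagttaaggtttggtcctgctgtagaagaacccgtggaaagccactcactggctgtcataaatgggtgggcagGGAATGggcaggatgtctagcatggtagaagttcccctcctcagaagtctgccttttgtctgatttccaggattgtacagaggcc
Vgll3: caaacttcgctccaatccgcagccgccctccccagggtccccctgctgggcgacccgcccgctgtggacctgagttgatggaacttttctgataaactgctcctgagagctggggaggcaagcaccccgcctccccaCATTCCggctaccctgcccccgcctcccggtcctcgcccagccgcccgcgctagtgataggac

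Such letters are common. Windows of 300 bases, from 250 before to 50 after the RefSeq start, were found for 53 of the 71 genes, and 18 had none. On either strand TEAD letters were in windows of 8 of the 53 (15.1%), against 14.7% of the named protein-coding genes tested. AP-1 letters were in 7 of the 53 (13.2%), against 6.67% of those genes. The SMAD palindrome GTCTAGAC was in 0 of the 53, and in 0.321% of the genes tested. Over all named protein-coding genes with windows, tested or not, these shares were 15.1% for TEAD, 8.23% for AP-1 and 0.278% for the palindrome. The matches in the sequences shown do not overlap each other. The genes with AP-1 letters besides Lor and Ivl were Schip1, Vtcn1, Psapl1, Rgs17 and F2r. A match is a description of the letters and not a measured binding site, and no binding was measured.

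Roles were assigned after the members were known, in groups of few genes, so comparisons between the groups are a description only. Of all 71 genes, 46 rose in the first step and 41 in the second, and the counts of each group stand beside those. Among secreted ligands and their modulators, 9 of the 71 genes, 0 were on in Smad4 KO, where 12 of all 71 were on. Wnt7b had the clearest steps, at 0.0789 and 0.0941 CPM in WT, at 0.691 and 0.766 CPM in Smad4 KO and at 6.63 and 7.0 CPM with TGF-β, and its second step was a log2 change of 3.17 ± 0.28 (SE, edgeR adjusted p = 0.000779). Its relative Wnt10b was at no more than 0.222 CPM in any library. Fstl1, a secreted binder of TGF-β family ligands, was at 0.414 and 0.377 CPM in WT, at 3.45 and 1.99 CPM in Smad4 KO and at 8.68 and 10.4 CPM with TGF-β. Ltbp1, which holds latent TGF-β in the matrix, was at 0 in WT, at 0.123 and 0.623 CPM in Smad4 KO and at 2.05 and 2.54 CPM with TGF-β. The chemokine Cxcl2 was at 0.0592 and 0.141 CPM, then 0.715 and 0.695 CPM, and then 2.31 and 2.4 CPM. Sema3e, an axon guidance ligand, rose in the first step and Vegfd, a lymphatic growth factor, in neither. Of the 9 genes 5 rose in the first step (Wnt7b, Fstl1, Ltbp1, Cxcl2 and Sema3e) and 3 in the second (Wnt7a, Wnt7b and Fstl1).

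Receptors and other membrane proteins were 12 of the 71, of which 3 were on, 5 were between and 4 were still off. Beside those above, Lrp2, the endocytic receptor megalin, was at 0.178 and 0 CPM in WT, at 0.789 and 0 CPM in Smad4 KO and at 5.75 and 10.7 CPM with TGF-β, and passed in neither step. Pmp22, a myelin and junction protein, passed in neither step, at 0 and 0.4 CPM, then 1.48 and 1.2 CPM, and then 5.26 and 6.29 CPM. Vtcn1, the immune checkpoint ligand B7-H4, and Mslnl, a relative of mesothelin, rose in both steps. Msln itself, no member, was at 17.3 and 21.1 CPM in WT, at 156 and 136 CPM in Smad4 KO and at 682 and 708 CPM with TGF-β, so reads shared with it would matter for Mslnl, which reached 4.11 and 3.91 CPM.

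Of the 6 secreted proteases and matrix enzymes, Cym, Prss22, Mcpt2 and Cemip rose in both steps. Mcpt2, a chymase of mucosal mast cells, was at 0 in WT, at 1.58 and 1.25 CPM in Smad4 KO, at least 10.9-fold higher, and at 9.54 and 8.19 CPM with TGF-β. Its near copy Mcpt1 stayed under 1 CPM, at 0.739 and 0.915 CPM with TGF-β, and the leukocyte markers stood as given beside Laptm5, with Ptprc near 0 and Csf1r detected in every library. Their part in the level of Mcpt2 was not tested. Cemip, a hyaluronan-degrading protein, was at 0.237 and 0.0941 CPM, then 1.01 and 1.94 CPM, and then 7.97 and 7.43 CPM. Wfdc18, a small secreted protein with a WAP domain, rose in the first step. The matrix crosslinker Loxl4 was at 0.316 and 0.188 CPM in WT, at 0.197 and 1.25 CPM in Smad4 KO and at 4.25 and 3.48 CPM with TGF-β, and passed in neither.

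All 6 genes for metabolic enzymes and pumps rose in the first step, and 3 of them, Ggta1, Atp6v1b1 and Ptgs2, rose in the second as well. Ptgs2, cyclooxygenase 2, the inducible enzyme of prostaglandin synthesis, was at 0 in WT, at 0.789 and 0.766 CPM in Smad4 KO, at least 6.04-fold higher, and at 3.51 and 2.84 CPM with TGF-β. Atp6v1b1, a subunit of the proton pump of acid-secreting cells, was at 0 in WT, at 0.691 and 0.814 CPM, at least 5.85-fold higher, and then at 6.35 and 5.03 CPM. This role group had the highest median share in Smad4 KO, at 45.9% of the level with TGF-β and with Ces2f, Alppl2 and Dct in it.

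The 7 genes of the cytoskeleton stood lowest in Smad4 KO, at a median 6.49% of their level with TGF-β, and 0 of them were on there. Tnni2, a troponin of fast muscle, was at 0.118 and 0.0471 CPM in WT, at 1.21 and 1.05 CPM in Smad4 KO and at 6.26 and 8.3 CPM with TGF-β. Palm3, a paralemmin, was at 0 in WT, at 0.986 and 1.25 CPM, at least 8.68-fold higher, and then at 5.01 and 5.51 CPM. These 2 rose in both steps, and Palmd and Schip1 in the second. Msn, moesin, which links actin to the membrane, was at 0.0789 and 0.471 CPM, then 0.617 and 0 CPM, and then 5.86 and 3.64 CPM, and passed in neither step. Its epithelial relative Ezr was above 500 CPM in every library.

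Among the 10 genes of signalling and traffic inside the cell, 7 rose in the first step and 8 in the second. S100a4, a calcium-binding protein of motile cells, was at 0 in WT, at 0.666 and 0.599 CPM in Smad4 KO, at least 4.91-fold higher, and at 4.89 and 3.66 CPM with TGF-β. Its exons overlap those of Gm42674 on the same strand over 51.7% of their length, and Gm42674 was at 0 in every library. Trim6 and March3, both ubiquitin ligases, were at 0.335 and 0.377 CPM and at 0.158 and 0.424 CPM in WT, and at 4.76 and 3.68 CPM and at 4.09 and 3.18 CPM with TGF-β. Hpcal4, a neuronal calcium sensor, had the smallest first step together with Dnah7b, at 0.414 and 0.471 CPM in WT, at 0.173 and 0.527 CPM in Smad4 KO and at 3.02 and 2.56 CPM with TGF-β. Dact3, an antagonist of Wnt signalling, reached 5.91 and 7.45 CPM and passed in neither step, Rassf8, a RAS-association protein, rose in both, and Rgs17, an inhibitor of G-protein signals, in the second.

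Eya2, a developmental phosphatase and transcriptional cofactor, was at 0.118 and 0 CPM in WT, at 2.22 and 1.17 CPM in Smad4 KO and at 3.37 and 5.24 CPM with TGF-β, and rose in the first step. The 3 genes of stress and interferon response, Hspb1, Cryab and Mx1, rose in the first step. In the second their edgeR adjusted p were 0.106, 0.0895 and 0.698. Hspb1, a small heat shock protein, was at 0 in WT, at 0.469 and 0.838 CPM, at least 5.09-fold higher, and then at 2.05 and 2.4 CPM. Cryab, also a small heat shock protein, was at 0.414 and 0.235 CPM, then 0.764 and 1.46 CPM, and then 2.61 and 4.23 CPM. Of the rest, Rmdn2 rose in both steps, the pregnancy-specific glycoprotein gene Psg25 and Psapl1 in the first, and Ankrd35 and Teddm3 in neither. Teddm3 was at 0.0394 and 0 CPM in WT, at 0.0247 and 0.647 CPM in Smad4 KO and at 2.24 and 2.9 CPM with TGF-β.

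**Figure D4:**
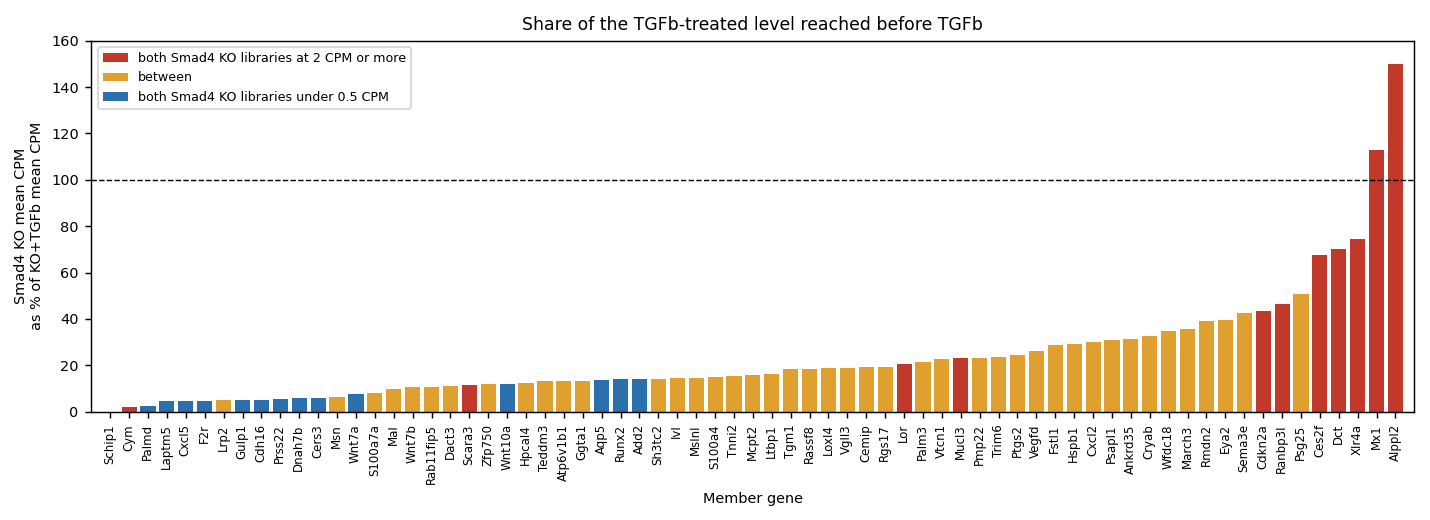
Mean CPM in Smad4 KO as a percent of the mean with TGF-β for each of 69 of the 71 genes (bars, sorted, no error drawn), coloured by the level in Smad4 KO. A dashed line marks 100%, which Alppl2 at 150% and Mx1 at 113% pass, and Cym at 1.77% is the lowest of the genes already on that are drawn.

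Many of the calls rest on few reads. Of the 71 genes 11 were at 0 in both WT libraries and 31 were at or under the floor of 3 fragments over the WT group. The first-step pass held in every fit with 1 library left out for 33 of the 46 genes. The 13 that lost it in at least 1 fit, at edgeR adjusted p of 0.0502 to 0.178, were Cryab, Ivl, Ltbp1, March3, Mslnl, Prss22, Psapl1, Rassf8, Runx2, Sema3e, Trim6, Vtcn1 and Wfdc18. For the second step 18 of 41 held, and 23 lost the pass at adjusted p of 0.0516 to 0.212. Besides Ranbp3l, Cdkn2a, Vgll3 and Schip1 those were Cdh16, Cemip, Cers3, Fstl1, Hpcal4, Mslnl, Palm3, Palmd, Ptgs2, Rassf8, Rgs17, Rmdn2, Runx2, S100a4, S100a7a, Trim6, Vtcn1, Wnt7a and Zfp750. The fits without a TGFb library lost the most. Exons of 12 of the 71 genes overlap those of another gene, over more than 10% of their length in S100a4, Schip1 and Cryab, and over 0.1 to 6.6% in the others.

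The 71 genes were set beside gene lists usually read for these pathways, and the number of members on a list is a description only. The 71 are a small part of the 15503 genes tested. A list of the sizes below can thus hold 0 members by that share alone, and such a 0 is not read as a result. Of all genes tested, 16.9% were higher and 13.4% lower in the first step and 7.78% higher and 8.48% lower in the second, and the counts of each list stand beside those shares. Of 23 tested targets of YAP and TAZ, the effectors of Hippo signalling, 0 were members. That list had 8 genes higher and 4 lower in the first step and 13 higher and 0 lower in the second, with median log2 changes of 0.35 and 0.91, where the medians of all genes were -0.02 and -0.01. Of 18 tested TGF-β/SMAD targets 0 were members, 6 were higher and 0 lower in the first step and 5 higher and 0 lower in the second, with medians of 0.26 and 0.29. Pmepa1, a feedback inhibitor of TGF-β signalling, was among these, at 14.2 and 15.3 CPM in WT, at 36.5 and 36.9 CPM in Smad4 KO and at 187 and 182 CPM with TGF-β.

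Of 20 tested fetal and regenerative markers 12 were higher and 2 lower in the first step and 15 higher and 0 lower in the second (medians 0.82 and 1.24). The squamous and cornified list held Ivl, Lor and Tgm1, with 8 higher and 2 lower of 16 tested in the first step and 10 higher and 0 lower in the second (medians 0.74 and 1.14), and 12 of its genes, Sprr1b and Sprr3 among them, were at 0 in every library. Cym alone came from the gastric and pancreatobiliary list, where 7 of 14 tested genes were higher and 1 lower in the first step and 5 higher and 1 lower in the second. Cxcl2 and Cxcl5 came from the cytokines and chemokines, of which 8 of 24 tested were higher and 3 lower in the first step and 7 higher and 4 lower in the second.

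Lists of matrix proteases and their inhibitors, of collagens and matricellular proteins, of cytokine and growth factor receptors and of actin and SRF genes held 0 members. The matrix proteases had 5 of 19 tested genes higher and 2 lower in the first step and 11 higher and 0 lower in the second. For the collagens these were 5 of 17 and 0, then 6 and 1. The receptors had 6 of 24 higher and 4 lower, then 8 and 2, and the actin genes 6 of 16 higher and 4 lower, then 7 and 2. For the counts of 0 lower above, the numbers at an unadjusted edgeR p under 0.05 were 2 and 1 for the TGF-β/SMAD targets in the first and second step, 1 for the collagens in the first, and 0 for the YAP and TAZ, fetal, squamous and matrix protease lists in the second. The lists, like the members, were chosen with earlier results of these data known. The rule removed in advance some genes of these lists that have the pattern, such as Spp1 and Ankrd1.

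The limits of the rule fell among genes of much the same level. Just inside the WT limit were Scara3 and Mucl3, both at 0.473 CPM in their higher WT library, and Ankrd35 at 0.471 CPM. Just outside were Clic3 at 0.513 CPM and Ift57 and Tmigd1, both at 0.565 CPM. Tmigd1 went on to 8.26 and 9.96 CPM in Smad4 KO and at 24.2 and 24.1 CPM with TGF-β. At the other limit Ltbp1, Aqp5 and Hspb1 were inside at 2.05 CPM in their lower TGFb library, and Crybb3 at 1.94, Adamts7 at 1.9 and Lrrc17 at 1.87 CPM were outside.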

How the data were processed

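The authors deposited estimated counts for each gene in whole numbers, 1 column for each of 6 libraries. HISAT2 2.1.0 and StringTie 1.3.3b are named with GRCm38, per the submitters' processing notes. Since neither the strand setting nor the annotation release was stated there, reads of antisense pairs may be mixed. Among values between 1 and 24, 42.3% were multiples of 4, against 25% if spread evenly, so a fragment was taken to add about 4 units. Floors of 3 fragments (12 units over a group) and 95% counting intervals rest on that inference and cover counting error only.

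CPM was computed as value divided by library total. Gene types, positions and exon lengths came from GENCODE vM21 on GRCm38. edgeR 4.0.16 (R 4.3.3; filterByExpr, TMM, glmQLFit, glmQLFTest, 2-sided) used all 6 libraries, with the group, taken from the titles, as the only term. It was checked on simulated data. DESeq2 1.42.0, scalings, filters, a replicate block and leaving out each library were alternatives. The contrast of TGFb with WT was used by the rule, so it was fitted over all genes for the background share alone and no member's test in it is given. The members and all lists were chosen with earlier results of these data known. Values in every library were to be given for the 12 genes highest with TGF-β, up to 8 highest in Smad4 KO, those at 0 in WT and KO, and the 5 largest and 5 smallest first steps, and other members were added after their values were seen. Same-numbered libraries did not deviate together. Of the 71 genes, 2 are counted throughout but not reported here by name, nor drawn.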

Additional observations from a re-analysis of the deposited data

How the results depend on the processing

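Each count over the 71 genes was recomputed under the alternatives. Their counts of unequal steps hold genes of either direction. The first-step count of 46 ran from 35 to 44 with 1 library left out, the second-step count of 41 from 22 to 48, and the 15 genes with unequal steps became 9 to 14. The lowest counts of the second step and of unequal steps came without either TGFb library. With the levels 0.5 and 1 CPM, 27 genes were on in Smad4 KO and 29 between; with 1 and 2 CPM, 25 were between and 34 still off. Leaving out a Smad4 KO library gave 12 to 18 on, 30 to 38 between and 21 to 23 still off. The number of members, 71, became 39 and 125 with WT limits of 0.25 and 1 CPM, and 31 and 121 with TGFb limits of 4 and 1 CPM. With DESeq2 the counts were 49, 51 and 20 (4 of the last with the larger second step), and with the values divided by 4 they were 44, 57 and 10. In a fit of the WT and Smad4 KO libraries alone 60 of the 71 genes were tested and 32 rose, and in a fit of the Smad4 KO and TGFb libraries alone all 71 were tested and 50 rose. The cause of these shifts was not tested, apart from the fewer libraries or genes.

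With the replicate number as a block, 44 genes rose in the first step, 33 in the second and 10 had unequal steps. Deviations of same-numbered libraries correlated at 0.001 to 0.014. Whether such libraries share a culture or a batch is not given by the labels. Of the genes called in a step, 0 changed sign under any alternative. Of the 25 not called in the first step, Schip1 was at 0 in both groups, and of the other 24, 10 did (Cers3, Cxcl5, Dnah7b, F2r, Hpcal4, Laptm5, Loxl4, Lrp2, Msn and Zfp750). The cause was not tested.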

Other observations

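Being off in WT and on in Smad4 KO was rare. Of 6871 named protein-coding genes under 0.5 CPM in both WT libraries, 17 were at 2 CPM or more in both Smad4 KO libraries. The 12 described above stayed on with TGF-β by the rule, and the other 5 did not keep both TGFb libraries at that level. Abca12, a lipid transporter of the skin barrier, was at 0.237 and 0.471 CPM in WT, at 3.08 and 2.01 CPM in Smad4 KO and at 2.31 and 1.42 CPM with TGF-β. Acot3, an acyl-CoA thioesterase, was at 0.158 and 0 CPM, then 2.07 and 2.11 CPM, and then 0.924 and 0.915 CPM. Scarf1 and Smcp likewise ended with a library under 2 CPM, and Plac9a was at 6.16 and 0 CPM in the TGFb libraries.

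The opposite pattern, on in both WT libraries and off in both with TGF-β, was shown by 28 named protein-coding genes under the same levels and exclusions, of which 0 were still on in Smad4 KO, 20 lay between and 8 were already off.

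Some of the 71 genes lie near each other on GRCm38. S100a4 and S100a7a are 48.0 kb apart and Lor and Ivl 487.8 kb apart on chromosome 3, Cxcl5 and Cxcl2 142.2 kb apart on chromosome 5, and Cdh16 and Ces2f 323 kb apart on chromosome 8. Within these pairs the level in Smad4 KO could differ, since Cdh16 was still off there and Ces2f was on.

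Over the 6 libraries, the genes whose log2(CPM + 1) followed Cym most closely of 11838 compared were Agrn (Pearson r = 0.9997), Foxq1 (0.9994) and Slc39a4 (0.9993). Those that followed Lor included St3gal4 (0.9995) and Pdzk1ip1 (0.999). With 3 groups of 2 libraries such values are a description of the group order only.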
